A study of Mus musculus with 15 samples.

Results

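The protein arginine methyltransferases form a small family of enzymes, and 8 of their genes were followed here through the cells of the mouse prefrontal cortex (PFC): Prmt1, Prmt2, Prmt3, Prmt5, Prmt6, Prmt7, Prmt8 and Carm1. They were taken by symbol from the 26145 genes listed in the files, and each of the 8 symbols occurred once. Levels were described in 8 cell classes and in the finer clusters of the deposited annotation, at P21 and P60, and after cocaine or saline self-administration. All mice were male C57BL/6N. The 3 P21 libraries came from mice of 3 weeks that took no part in self-administration. The 12 P60 libraries came from mice labelled 8 to 10 weeks that pressed a lever for intravenous cocaine or for saline, with 2 libraries for each treatment taken during maintenance of drug taking, 48 h after withdrawal or 15 days after withdrawal. In the study catheters were placed at P60 and tissue was taken after self-administration. The mice called P60 here were therefore older than P60 at collection, and the time since P60 differed between periods. The tissue of 2 mice was pooled for a P60 library. The study used fewer P21 mice than 2 for each of 3 libraries, so the P21 libraries may not be wholly separate animals.

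Protein arginine methyltransferases move methyl groups from S-adenosylmethionine to arginines of histones, RNA-binding proteins and splicing factors. Prmt1, Prmt2, Prmt3, Prmt6, Prmt8 and Carm1 make asymmetric dimethylarginine, Prmt5 makes the symmetric form, and Prmt7 adds a single methyl group. In the nervous system Prmt1 and Prmt5 are known for roles in the oligodendrocyte lineage, while Prmt8, a close relative of Prmt1 that is anchored in the plasma membrane, is known for its restriction to neurons.

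A level is given as CPM, the unique molecular identifiers (UMIs, counts of captured RNA molecules) of a gene divided by all UMIs of its class in a library and scaled to the same total, over 25989 genes without those of mitochondria and ribosomal proteins. Reads came from the 3′ ends of transcripts, so levels were compared between cells and ages and not between genes. The 35360 retained cells gave 1055 to 4439 cells per library with a median of 3426 to 11334.5 UMIs per cell, and no pair of libraries shared more than 27 cell barcodes. Of 32 class markers, 30 were highest in their own class at P60 and 29 at P21. The 3 exceptions were Snap25, which both neuronal classes express, Gpr17, shared by oligodendrocyte precursors and newly formed oligodendrocytes, and at P21 Mbp, the myelin basic protein gene. The tissue label of the samples names the nucleus accumbens while titles and sources name the PFC. In total 14443 of the 24822 P60 cells were excitatory and 1191 were inhibitory neurons. P21 and P60 libraries were prepared from different mice, and no label gives a batch that holds both ages, so age and preparation cannot be told apart. The P60 mice, those given saline included, also went through food restriction, lever training, catheter surgery and self-administration. The effects of these procedures cannot be told apart from age. In summed counts, fewer cells with RNA of a gene and less RNA per cell cannot be told apart either.

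The start regions of 3 genes are shown because these genes gave the contrasting patterns below: Prmt1 was higher at P60, Prmt6 was lower at P60, and Prmt8 was found in neurons. The sequences are the 250 bases before the start of each gene in RefSeq, 5′ to 3′ on the strand of the gene, with coordinates of GRCm38.p6, a later build than the NCBIM37 (mm9) of the counts. RefSeq windows were matched for 7 of the 8 genes. Capitals mark GC boxes, searched as GGGCGG on both strands.
Prmt1, chr7:44986421-44986670, minus strand: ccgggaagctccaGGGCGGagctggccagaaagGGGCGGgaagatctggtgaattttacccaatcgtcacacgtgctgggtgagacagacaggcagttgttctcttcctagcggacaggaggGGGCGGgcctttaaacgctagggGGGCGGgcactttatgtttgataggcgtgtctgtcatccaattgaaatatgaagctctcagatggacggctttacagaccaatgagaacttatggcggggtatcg
Prmt6, chr3:110251000-110251249, minus strand: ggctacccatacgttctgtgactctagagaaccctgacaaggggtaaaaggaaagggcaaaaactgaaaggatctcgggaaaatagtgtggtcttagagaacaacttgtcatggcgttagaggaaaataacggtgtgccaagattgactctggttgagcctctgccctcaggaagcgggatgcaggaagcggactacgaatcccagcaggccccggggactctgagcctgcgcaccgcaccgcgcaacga
Prmt8, chr6:127769156-127769405, minus strand: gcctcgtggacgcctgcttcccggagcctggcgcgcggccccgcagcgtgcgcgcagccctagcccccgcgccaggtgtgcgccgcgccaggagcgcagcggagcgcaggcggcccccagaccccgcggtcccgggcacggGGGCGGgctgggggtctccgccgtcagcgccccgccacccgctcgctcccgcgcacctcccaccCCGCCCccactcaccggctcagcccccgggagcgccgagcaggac
The Prmt1 window held 4 GC boxes, that of Prmt8 held 2 and that of Prmt6 held 0, and 32.9% of 27025 windows of the same length held at least 1. Prmt8 had 37 CG dinucleotides and a GC content of 82.0%, against 13 CG dinucleotides in each of the Prmt1 and Prmt6 windows and a median of 6 over all windows. None of these 3 windows held TATAAA (13.0% of all windows did) or TGACGTCA (1.62% did) on either strand. Of the matched windows not shown, that of Prmt5 held 0 GC boxes and those of Prmt2, Prmt3 and Prmt7 held 1 each. The Prmt7 window had 35 CG dinucleotides and a GC content of 70%, so a CG-rich window was not particular to Prmt8. These matches describe letters and are not evidence of binding.

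On NCBIM37 the genes lie at chr7:52231359-52241862 (Prmt1, minus strand), chr10:75669967-75700610 (Prmt2, minus strand), chr7:57033716-57113635 (Prmt3, plus strand) and chr14:55126024-55136362 (Prmt5, minus strand). Prmt6 lies at chr3:110049027-110053916 on the minus strand and has at most 2 exons in its annotated transcripts, while the other 7 have 10 to 18. Prmt7 lies at chr8:108734836-108776694 on the plus strand, Prmt8 at chr6:127639029-127719490 on the minus strand and Carm1 at chr9:21351338-21393931 on the plus strand.

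Prmt8 had the narrowest distribution over cell classes. At P60 it stood at 57.0 ± 5.24 CPM (SD, n = 12 libraries) in excitatory neurons, with a lowest library of 49.3, a median of 55.9 and a highest of 68.9. In inhibitory neurons it stood at 49.8 ± 11.7 CPM, from 34.8 over a median of 48.3 to 81.7. No other class exceeded a mean of 13.5 CPM, the level in oligodendrocyte precursors, and the lowest was 2.24 ± 2.02 CPM in endothelial cells, which line blood vessels. The highest class mean was 25.5 times the lowest. Every one of 11 libraries with both classes was higher in inhibitory neurons than in precursors, by 2.60 on the log2 scale (exact sign-flip permutation test over libraries, two-sided, p = 0.000977, adjusted p = 0.0182 over the 56 neighbour pairs of the 8 genes). The step from excitatory to inhibitory neurons was smaller, 0.22 on the log2 scale and in that direction in 10 of 12 libraries, and did not pass (adjusted p = 0.120, same exact test).

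At least 1 Prmt8 UMI was seen in 46.4% of 14443 excitatory and 28.4% of 1191 inhibitory neurons at P60, against 1.12% of 3564 endothelial cells, a class that should lack it. Median depth was 13620, 8038 and 4515.5 UMIs in these 3 classes. With each cell thinned to 2000 UMIs the shares were 8.93% (exact binomial interval 8.47% to 9.41%), 8.06% (6.58% to 9.75%) and 0.505% (0.300% to 0.797%), where intervals cover counting error at the 95% level. At equal depth these intervals overlapped between excitatory and inhibitory neurons, and both lay above the endothelial one. They pool cells of all libraries and leave out the spread between libraries. Precursors ranged from 0 to 45.7 CPM of Prmt8 between libraries, and the 4 excitatory markers summed there to 181 to 1786 CPM against 5088 to 6528 CPM in excitatory neurons. The part of that neuronal RNA in the precursor level was not tested.

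**Figure D1:**
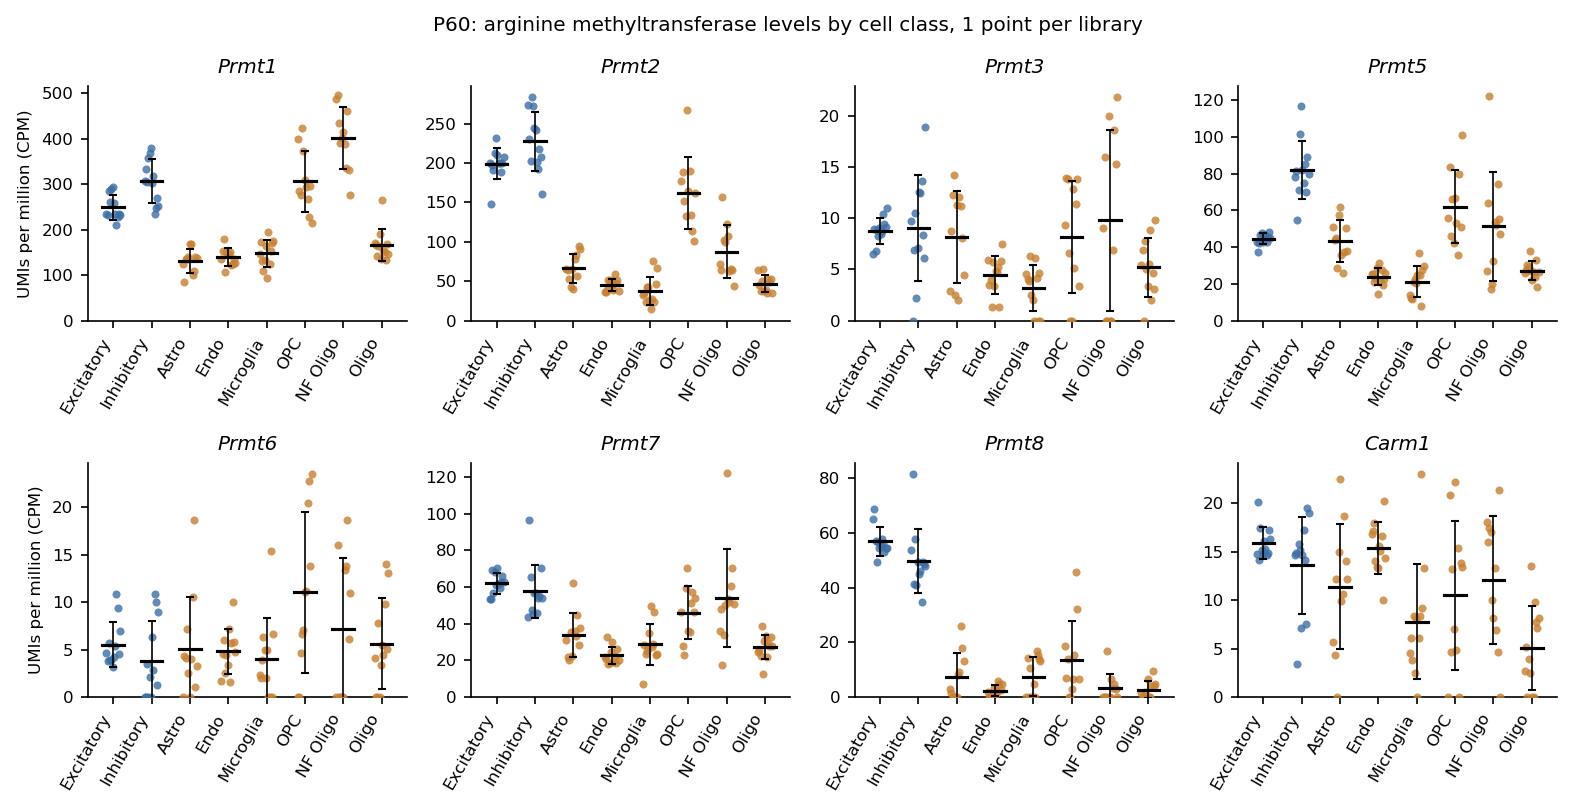
Levels of the 8 genes at P60 in CPM (linear axes from 0) by cell class, with 1 point per library, a line at the mean and bars of 1 SD (n = 11 or 12 libraries). Neuronal classes are blue. Prmt8 falls from 57.0 and 49.8 CPM in neurons to means of at most 13.5 CPM elsewhere, and Prmt1 is highest in newly formed oligodendrocytes (NF Oligo).

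Prmt1, the main maker of asymmetric dimethylarginine in most cells, was found in every class and was highest in newly formed oligodendrocytes. Newly formed oligodendrocytes stood at 402 ± 68.1 CPM (n = 11), with a lowest library of 277, a median of 401 and a highest of 496. Inhibitory neurons (306 ± 48.1 CPM) and oligodendrocyte precursors (306 ± 66.7 CPM) came next and did not differ beyond their spread (0.01 on the log2 scale). Excitatory neurons followed at 249.5 ± 27.2 CPM and mature oligodendrocytes at 166 ± 35.2 CPM. Newly formed oligodendrocytes exceeded inhibitory neurons in 11 of 11 libraries (0.39 on the log2 scale), precursors exceeded excitatory neurons in 10 of 11 (0.29), and excitatory neurons exceeded mature oligodendrocytes in 11 of 12 (0.60), with adjusted p of 0.0182, 0.0456 and 0.0182 (exact sign-flip permutation test). Mature oligodendrocytes, microglia (148 CPM), endothelial cells (139.7 CPM) and astrocytes (131 CPM) were neighbours without a difference past the threshold. Over all genes 6 of the 56 neighbour pairs passed, and 3 to 6 did when a library was left out.

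Prmt2, a coactivator of nuclear receptors, was a gene of neurons and precursors. It stood at 227 ± 37.3 CPM in inhibitory neurons, 199 ± 19.7 in excitatory neurons and 162 ± 45.2 in oligodendrocyte precursors, and between 37.8 and 87.3 CPM in the other 5 classes. The step that passed lay between precursors and newly formed oligodendrocytes, at 0.93 on the log2 scale and in 10 of 11 libraries (adjusted p = 0.0273, exact permutation test). Prmt5, which methylates the Sm proteins of the spliceosome together with its partner Wdr77, was highest in inhibitory neurons at 82.1 ± 15.7 CPM, where libraries ran from 55.0 to 117, and stood at 44.5 ± 3.05 CPM in excitatory neurons. Its step from inhibitory neurons to precursors (61.9 CPM) was present in 8 of 11 libraries and did not pass (adjusted p = 0.120, exact permutation test). The step from astrocytes (43.1 CPM) to mature oligodendrocytes (27.2 CPM) was present in 10 of 11 libraries (0.63 on the log2 scale, adjusted p = 0.0456, exact permutation test).

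For the remaining 4 genes none of the neighbour pairs passed, while their highest class means were 2.74 to 3.14 times the lowest. Prmt7 went from 62.2 ± 5.76 CPM in excitatory neurons and 57.6 ± 14.6 in inhibitory neurons to 22.7 ± 4.83 in endothelial cells, and the libraries of excitatory neurons (53.3 to 70.5 CPM) did not overlap those of endothelial cells (17.9 to 33.0 CPM). Carm1, a coactivator that methylates histone H3, ranged between class means of 5.07 CPM in mature oligodendrocytes and 15.9 CPM in excitatory neurons, with endothelial cells at 15.4 CPM close behind. Prmt3, whose best known substrate is a ribosomal protein, had class means between 3.18 and 9.80 CPM, and Prmt6, a maker of repressive histone marks, between 3.82 and 11.03 CPM. For Prmt3 and Prmt6 at least 1 library was at 0 in several glial classes, and these levels rested on 14 to 79 UMIs per class outside neurons.

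Among excitatory clusters, Prmt8 and Prmt2 had the widest ranges at P60. Over the 26 excitatory clusters at P60, Prmt8 ran from 12.0 CPM in cluster Exc_21 to 87.7 CPM in cluster Exc_2, a ratio of 7.33, on UMIs pooled over libraries. Library by library the same clusters stood at 10.8 ± 4.70 and 87.9 ± 24.4 CPM (n = 12). Cluster Exc_21 was led by Tshz2, Trh and Nxph1 over the other excitatory clusters, and Exc_2 by Inhba, Penk and Lpl. Exc_21 had at the same time the highest Prmt2 of all excitatory clusters, 353 CPM, and the lowest Prmt2 was 73.1 CPM in Exc_18, which was led by Igfbp4, Syt6 and Foxp2. The other genes spread less at P60, from a ratio of 1.51 between highest and lowest excitatory cluster for Prmt1 to 2.79 for Prmt6.

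These cluster levels correlated more closely between the ages for some genes than for others. Across the 26 excitatory clusters, the log2 levels at P21 and at P60 had a Pearson correlation of 0.94 for Prmt2, 0.92 for Prmt8, 0.76 for Prmt6 and 0.75 for Prmt7, and of 0.39 for Prmt1 and -0.28 for Prmt3. The lowest and highest Prmt3 clusters at P21 rested on 8 and 15 UMIs, and Prmt1 spread by a ratio of 1.51 at P60. The part of few counts and a narrow range in the low correlations was not tested. The points of the 2 ages came from different mice but from clusters named by likeness between the ages, and the correlations are descriptions. Exc_21 was the lowest for Prmt8 at P21 too (11.7 CPM) and the highest for Prmt2 (361 CPM). Among the 12 inhibitory clusters, Prmt5 was highest in Inhib_7, at 114 ± 16.7 CPM at P60 (n = 9) and 121 ± 64.1 CPM at P21 (n = 3), a cluster led by Mia1, Tac1 and Tnnt1 with Npy at 29563 CPM.

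**Figure D2:**
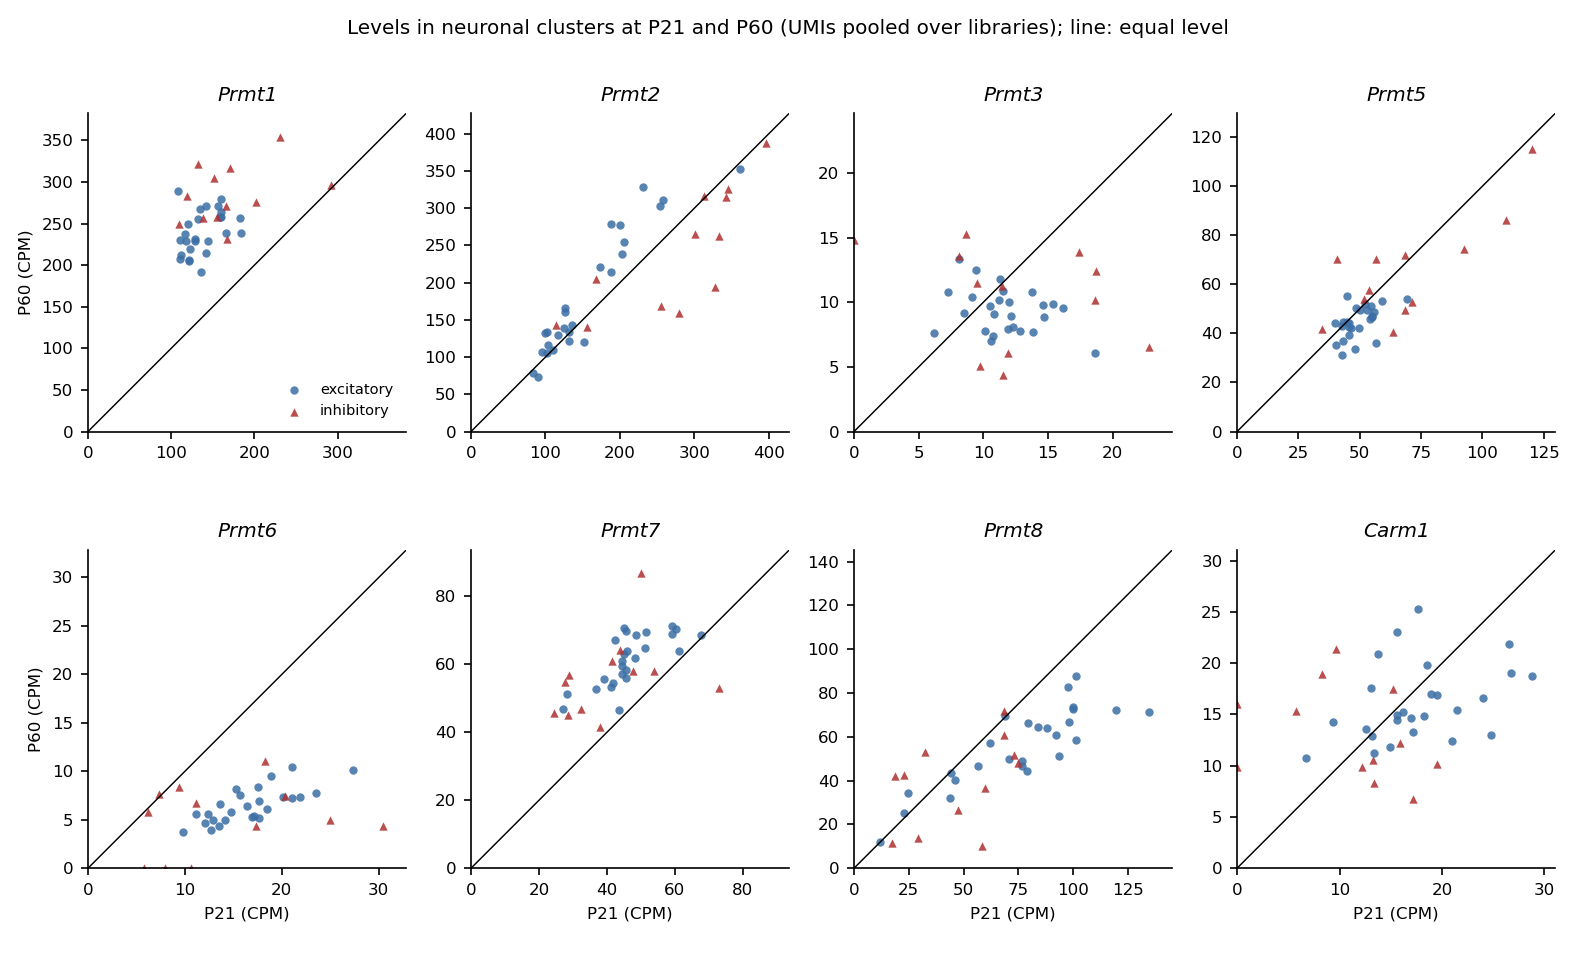
Level of each gene in 26 excitatory (blue circles) and 12 inhibitory (red triangles) clusters at P21 (x axis, CPM) and P60 (y axis, CPM), with UMIs pooled over libraries and a line of equal level. All 26 excitatory clusters lie above the line for Prmt1 and Prmt7 and all lie below it for Prmt6.

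By a fixed likeness rule, the 3 genes closest to each member over 98 clusters of P60 cells were listed (Pearson correlation of log2 levels among 9347 genes with a mean of at least 10 CPM). Prmt8 was closest to Nsf (0.89), an ATPase of vesicle fusion, Sncb (0.89), which encodes beta-synuclein, and Tmem191c (0.88). Prmt1 was closest to Snrpa (0.88), a spliceosomal protein, and to Cct8 and Cct7 (0.86 each), subunits of a cytosolic chaperonin. Prmt2 was closest to Trim32, Bex1 (0.87 each) and Rit2 (0.86), Prmt7 to Cuedc2, Nme1 and Rtn1 (0.83 each) and Prmt5 to Eif1b, Tmem126a and Mettl11a (0.81 each). The highest values of the other 3 genes were lower. The correlation was 0.72 for Carm1 with March5 and 0.67 with Zdhhc8 and 0.62 with Tomm6, at most 0.66 for Prmt3 (Klhdc2, then Lrpprc and Nudcd1) and at most 0.51 for Prmt6 (AU022252, then Cpsf1 and Megf9). Clusters share libraries and differ in depth, and these values are descriptions. Between members the highest correlation was 0.71, of Prmt2 with Prmt7.

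The comparison of ages asks which of these enzymes change over adolescence. P60 saline libraries were tested against P21 libraries in each class with edgeR on summed UMIs, and a call required both more than a 1.5-fold change and p below 0.05 after Benjamini-Hochberg adjustment. In excitatory neurons all 8 genes were tested and 3 were called: Prmt1 and Prmt7 were upregulated at P60 and Prmt6 was downregulated, where 19.3% of 13245 genes were called. In inhibitory neurons 7 were tested and only Prmt1 was called (14.0% of genes called). Prmt1 was the single call in endothelial cells as well (7 tested, 12.7% of genes called) and in mature oligodendrocytes (4 tested, 17.8% of genes called). Of 4 tested genes each in astrocytes and newly formed oligodendrocytes and 2 in microglia, 0 were called, with 1.11%, 1.94% and 0.726% of genes called in those classes. By edgeR's unadjusted p, 3 of these 10 tests were below 0.05, those of Prmt1 in astrocytes and of Prmt1 and Prmt7 in newly formed oligodendrocytes. The share of all genes below an unadjusted 0.05 in these classes was not counted. DESeq2 called 0 as well. Oligodendrocyte precursors could not be fitted because a single P21 library held 10 or more of them.

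Prmt1 was called in 4 of the 7 classes tested. In excitatory neurons the 3 P21 libraries stood at 166, 109 and 108 CPM, while the 6 P60 saline libraries ran from 232 over a median of 246 to 288 CPM. The groups did not overlap, and the change was 1.06 ± 0.15 (log2, SE), or 2.09-fold (edgeR adjusted p = 0.000268). In inhibitory neurons P21 libraries at 189, 127 and 125 CPM faced P60 libraries from 252 over 305 to 368 CPM, a change of 1.02 ± 0.17 (adjusted p = 0.000549). Mature oligodendrocytes changed by 1.42 ± 0.25, from P21 libraries at 85.5, 37.3 and 46.6 CPM to P60 libraries between 143 and 265 CPM (adjusted p = 0.000877), and endothelial cells by 0.82 ± 0.20, from 111, 61.7 and 53.9 CPM to between 126 and 180.0 CPM (adjusted p = 0.0153).

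RNA of other cells and mitochondrial RNA also moved with age. In excitatory neurons the 2 erythrocyte markers summed to 788 to 1288 CPM at P21 against 87.1 to 410 CPM in P60 saline libraries, the 4 markers of mature oligodendrocytes to 177 to 274 against 49.2 to 112 CPM, and the 4 endothelial markers to 32.7 to 76.8 against 5.37 to 26.05 CPM. The 4 excitatory markers there summed to 4115 to 4369 against 5094 to 6528 CPM. Precursor markers summed to 5.44 to 10.1 against 0.224 to 2.09 CPM, and those of newly formed oligodendrocytes to 8.19 to 15.6 against 0.242 to 1.38 CPM. The astrocyte and microglial sums overlapped between the ages. In endothelial cells the erythrocyte markers summed to 79292.5 to 102898 CPM at P21 against 41617 to 67857 CPM, and in mature oligodendrocytes the 4 markers of newly formed oligodendrocytes to 254 to 296 against 105 to 203 CPM. In inhibitory neurons the erythrocyte sums of the ages overlapped, at 397 to 1504 and 72.1 to 2957 CPM, while the 4 microglial markers there summed to 30.7 to 40.3 CPM at P21 against 0 to 23.0 CPM and the 4 inhibitory markers to 4803 to 5214 against 5899 to 7210 CPM. In mature oligodendrocytes the microglial markers (30.3 to 154 against 0 to 25.5 CPM) and the precursor markers (57.3 to 93.2 against 2.51 to 34.5 CPM) did not overlap between the ages either. Their own 4 markers summed to 26660 to 38602 against 18642 to 22047 CPM. In newly formed oligodendrocytes these 4 mature markers summed to 24964 to 27420 CPM at P21 against 6960 to 15310 CPM. The 4 markers of newly formed oligodendrocytes overlapped there, at 3042 to 3608 and 3457 to 4317 CPM. The median mitochondrial share of a library was 3.28% to 3.64% at P21 and 2.53% to 3.26% in P60 saline libraries. The part of these shifts in the age changes of the 8 genes was not tested.

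The first P21 library was the highest of the 3 for Prmt1 in each of the 7 classes that all 3 contain. It also had the most cells, 4439, and the highest median depth of the P21 libraries, 8369 UMIs, and the part of this in the Prmt1 level was not tested. Without that library the excitatory change was 1.30, the inhibitory 1.25, the endothelial 1.21 and that of mature oligodendrocytes 1.96, and all stayed called. The endothelial call was lost without the second or the third P21 library (0.71, adjusted p = 0.0803, and 0.63, adjusted p = 0.0686) and with both of them summed to 1 sample (0.68, adjusted p = 0.0657). The values that did not pass were 0.64 ± 0.29 in astrocytes, 0.70 ± 0.19 in newly formed oligodendrocytes (adjusted p = 0.0612) and 0.25 ± 0.27 in microglia. In astrocytes the value ran from 0.505 to 1.29 over the alternatives and was called in none. In newly formed oligodendrocytes the change was called without the saline library 12 of 15 days (0.81, adjusted p = 0.0222) and with all 12 P60 libraries (0.80, adjusted p = 0.00394). With classes taken from the other class column, an alternative chosen after seeing the data, Prmt1 was called in newly formed oligodendrocytes (0.79, adjusted p = 0.0188) and in microglia (0.84, adjusted p = 0.0170), and Prmt2 was called lower in microglia (-1.26, adjusted p = 0.00803).

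Prmt6 went the other way. Its P21 libraries stood at 18.7, 14.6 and 12.4 CPM in excitatory neurons, and the P60 saline libraries ran from 3.80 over a median of 4.39 to 6.98 CPM, with no overlap. The change was -1.56 ± 0.18 on the log2 scale, a P21 level 2.95 times that of P60 (edgeR adjusted p = 5.66e-05), and it was the call of this family that stayed under a Bonferroni adjustment too. At 2000 UMIs per cell, 2.97% of P21 excitatory neurons (2.56% to 3.44%) and 1.14% of the excitatory neurons of all 12 P60 libraries, saline and cocaine (0.976% to 1.33%), held a Prmt6 UMI. In endothelial cells the value was -0.85 ± 0.29 (adjusted p = 0.0570), and it was called with the other class column (-0.97, adjusted p = 0.0291). In inhibitory neurons Prmt6 did not pass the filter on low counts, with P21 libraries at 13.6, 8.94 and 10.6 CPM on 71 UMIs and P60 saline libraries between 0 and 8.99 CPM on 19 UMIs, of which the highest P60 library overlapped the P21 range. It was called there without the filter (-1.41, adjusted p = 0.0159), without the saline library 7 of 48 h (-1.57, adjusted p = 0.0459) and without the saline library 12 of 15 days (-1.91, adjusted p = 0.0123). In the fits without library 7 or 12, the P21 level of Prmt6 could carry it past the filter, so those values are a description. Without the filter it was called in mature oligodendrocytes too (-1.84, adjusted p = 0.00977).

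Prmt7 was upregulated by 0.60 ± 0.10 in excitatory neurons, from P21 libraries at 45.0 to 45.2 CPM to P60 libraries from 53.5 over 67.4 to 70.5 CPM (edgeR adjusted p = 0.000598). At 1.52-fold it lay just past the fold limit, and it fell under that limit, with an adjusted p below the threshold, when the maintenance saline library 3 (0.56) or the saline libraries 5 (0.57) or 7 (0.56) of 48 h were left out. In inhibitory neurons it stood at 0.50 ± 0.17 (adjusted p = 0.0455), under the fold limit, and was called with cells thinned to 2000 UMIs (1.14, adjusted p = 0.00678). The 3′ end of Prmt7 lies inside the noncoding gene Gm17245 of the opposite strand, and that of Carm1 inside Yipf2 of the opposite strand. The study did not state whether counting used strand, and whether reads of these pairs were mixed was not tested.

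**Figure D3:**
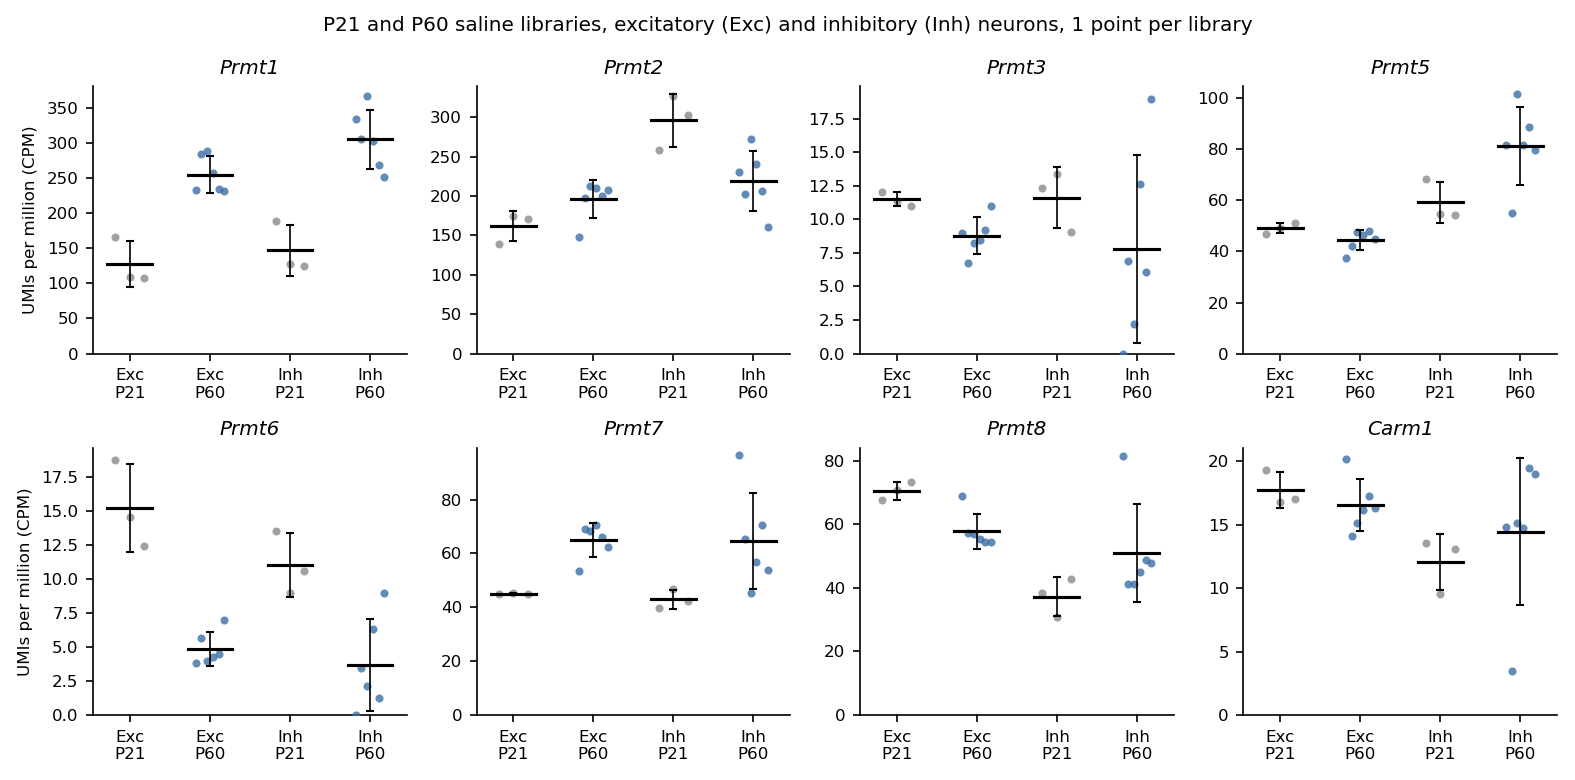
Level of each gene in CPM (linear axes from 0) in excitatory (Exc) and inhibitory (Inh) neurons of the 3 P21 libraries (grey) and 6 P60 saline libraries (blue), with a line at the mean and bars of 1 SD. Prmt1 does not overlap between ages in either class, and the mean of Prmt2 is higher at P60 in excitatory but lower in inhibitory neurons.

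Prmt2 had age values of opposite sign in the neuronal classes. In excitatory neurons it stood at 139.5, 175 and 170.5 CPM in the P21 libraries and from 148 over 204 to 212 CPM at P60, where the maintenance saline library 2 was the low one and lay in the P21 range. In inhibitory neurons P21 libraries were at 259, 327 and 303 CPM and P60 libraries ran from 161 over 219 to 273 CPM. The changes were 0.35 ± 0.12 (adjusted p = 0.0356) and -0.45 ± 0.15 (adjusted p = 0.0414), both under 1.5-fold. The difference between the classes was tested itself, with the library as a block in edgeR: the inhibitory change was 0.88 lower than the excitatory one (-0.88 ± 0.11, adjusted p = 5.6e-07). By cluster, the fits against P60 saline libraries gave positive values of Prmt2 in 24 of 26 excitatory clusters. With UMIs pooled over all P60 libraries, its level was higher at P60 in 20 of 26 excitatory and 3 of 12 inhibitory clusters.

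Prmt8 and Prmt5 also differed between neuronal classes in that test. The inhibitory change exceeded the excitatory one by 0.60 ± 0.16 for Prmt8 (adjusted p = 0.00833) and by 0.49 ± 0.14 for Prmt5 (adjusted p = 0.0172). Prmt8 stood at 67.7, 71.0 and 73.3 CPM in P21 and from 54.5 over 56.1 to 68.9 CPM in P60 excitatory neurons (-0.23 ± 0.09, adjusted p = 0.0536), against 38.3, 30.7 and 42.8 CPM and from 41.1 over 46.6 to 81.7 CPM in inhibitory neurons (0.34 ± 0.18, adjusted p = 0.199). By cluster, the fits against P60 saline libraries gave negative values of Prmt8 in 24 of 25 excitatory clusters, with a median of -0.46. Prmt5 stood at 46.9, 49.4 and 51.1 CPM in P21 and from 37.4 over 45.8 to 48.1 CPM in P60 excitatory neurons (-0.07 ± 0.09), against 68.6, 54.7 and 54.4 CPM and from 55.0 over 81.8 to 102 CPM in inhibitory neurons (0.47 ± 0.16, adjusted p = 0.0515). Inhibitory cells were spread over the 12 clusters in different proportions at the 2 ages. With UMIs pooled over all P60 libraries, the level was higher at P60 in 4 of 12 inhibitory clusters for Prmt8 and in 6 of 12 for Prmt5. Cluster Inhib_7, the highest for Prmt5 at both ages, held 76 of 962 inhibitory cells at P21 (120 CPM of Prmt5 on 58 of 378 UMIs) and 392 of 1191 at P60 (115 CPM on 395 of 773 UMIs). Cluster Inhib_2, the lowest for Prmt8 at P21, held 341 cells at P21 (17.4 CPM of Prmt8) and 112 at P60 (11.5 CPM). The part of this shift between clusters in the inhibitory age values, those of Prmt2 included, was not tested. Without the first P21 library the inhibitory value of Prmt5 was called (0.60, adjusted p = 0.0157). The difference for Prmt8 no longer passed without the second P21 library (0.48, adjusted p = 0.0968). That for Prmt5 no longer passed without the second (0.43, adjusted p = 0.112) or the third P21 library (0.41, adjusted p = 0.146) or without the saline library 11 of 15 days (0.49, adjusted p = 0.0548).

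These were 3 of 8 genes whose age change differed between inhibitory and excitatory neurons, where 11.1% of genes did by adjusted p alone. Endothelial cells differed from excitatory neurons for Prmt2 (-0.75 ± 0.14, adjusted p = 0.00146, 1 of 8 genes against 14.2% of all). Prmt2 was -0.80 ± 0.26 relative to excitatory neurons in mature oligodendrocytes (adjusted p = 0.0617). That difference passed without the maintenance saline library 2 (-0.87, adjusted p = 0.0147), without the saline library 11 of 15 days (-0.89, adjusted p = 0.0254) and with all 12 P60 libraries (-0.74, adjusted p = 0.0146). For mature oligodendrocytes, newly formed oligodendrocytes, microglia and astrocytes 0 of 8 genes passed, where 4.62%, 2.93%, 1.18% and 0.189% of all genes did. Only 4, 4, 2 and 4 of the 8 passed the filter on low counts in these classes alone. The others had too few counts there, so their not passing is no evidence of an equal change. For Prmt1 the difference from excitatory neurons lay between -0.44 and 0.47 in the 6 classes tested and did not pass in any of them.

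**Figure D4:**
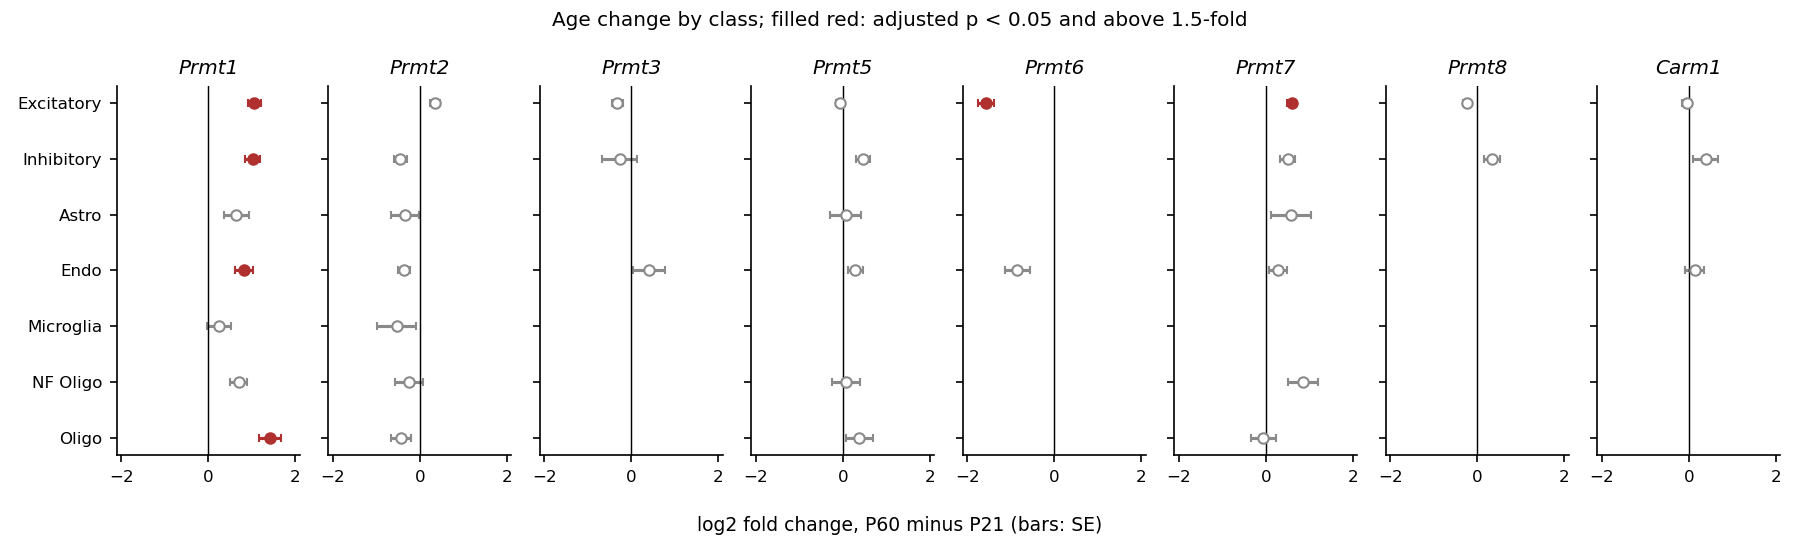
Change between P21 and P60 saline libraries (log2, P60 minus P21) with its SE for each gene and class that could be tested. Filled red points were called at an adjusted p below 0.05 and above 1.5-fold, and these are Prmt1 in 4 classes and Prmt6 and Prmt7 in excitatory neurons.

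Prmt3 and Carm1 were not called in any class. In excitatory neurons Prmt3 stood at 12.0, 11.4 and 11.02 CPM at P21 and from 6.77 over 8.71 to 10.97 CPM at P60 (-0.32 ± 0.12, adjusted p = 0.0577). Carm1 stood at 19.3, 16.7 and 17.0 CPM at P21 and from 14.1 over 16.2 to 20.1 CPM at P60 (-0.05 ± 0.10), ranges that overlapped.

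Cluster by cluster, 147 tests of a member in an excitatory cluster could be made and 39 were called, against 11.3% of 167898 tests of all genes. Higher at P60 were 24 of 26 clusters for Prmt1, 4 of 26 for Prmt7 and 2 of 26 for Prmt2, where 4.54% of all tests were called in that direction. Lower at P60 were 5 of 25 clusters for Prmt8, where 6.73% of all tests were. Prmt6 passed the filter on low counts in only 4 clusters, where its P21 level could carry it past the filter, and its values there, between -2.19 and -1.68, are a description. The 39 calls include these 4 and the 24 of Prmt1. The clusters come from the same libraries, so the 39 are not separate results and do not describe the family as a whole. The number of calls was 15 with cells thinned to 2000 UMIs, which leaves fewer counts.

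The size of the Prmt1 change ran from 0.41 ± 0.16 in Exc_2 (adjusted p = 0.0936) to 1.60 ± 0.19 in Exc_17, with a median of 1.03. A test of unequal age changes over the 14 clusters with at least 10 cells in each of the 9 libraries passed for Prmt1 (edgeR F test, adjusted p = 0.000207) and Prmt2 (adjusted p = 4.1e-06), 2 of 8 genes where 20.5% of all genes passed. For Prmt8 it did not pass (adjusted p = 0.305). Of these 14 clusters, Prmt2 was at 0.63 ± 0.14 in Exc_25 and -0.19 ± 0.15 in Exc_19. Clusters Exc_15, Exc_17, Exc_18 and Exc_20 were not among the 14, so the test does not bear on their values. Prmt2 was at 0.59 ± 0.16 in Exc_15 and -0.20 ± 0.21 in Exc_18, and Prmt8 was at -1.11 ± 0.21 in Exc_15 (adjusted p = 0.00211) and 0.65 ± 0.35 in Exc_20. In Exc_15, which was led by Expi, S100b and Marcksl1, Prmt8 went from 152 ± 42.7 CPM (n = 3) at P21 to 64.5 ± 13.4 CPM (n = 8) in all P60 libraries with at least 10 of its cells, while Prmt2 went from 224 ± 24.2 to 333 ± 26.05 CPM.

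Other genes of the pathway were counted from lists of partners, readers, methyl donor enzymes, dimethylarginine breakdown and substrates. Ddah1 and Ddah2, the hydrolases that degrade free asymmetric dimethylarginine, were both downregulated at P60 in excitatory neurons (-2.09 ± 0.14, adjusted p = 1.61e-06, and -0.83 ± 0.19, adjusted p = 0.00365) and in inhibitory neurons (-0.85 ± 0.20 and -0.80 ± 0.23), 2 of 2 tested genes. Over all genes tested, 8.18% were called higher and 11.1% lower at P60 in excitatory neurons, and 5.73% higher and 8.29% lower in inhibitory neurons, and the counts of each list stand beside these shares. Of 7 tested partners and regulators, 2 were lower in excitatory neurons, Btg2, which binds Prmt1 (-1.18 ± 0.10), and Carhsp1 (-1.86 ± 0.44), and 0 were higher. Of 7 readers and candidate erasers, Spin1, a reader of histone methylation, was lower in excitatory neurons (-0.59 ± 0.14) and 0 were higher. Carhsp1 and Spin1 were also lower in inhibitory neurons (-1.35 ± 0.31 and -0.61 ± 0.15) and in endothelial cells (-0.84 ± 0.12 and -0.69 ± 0.17), where Jmjd6, a candidate eraser, was lower too (-0.64 ± 0.14). In mature oligodendrocytes Btg1, another partner of Prmt1, was lower (-1.15 ± 0.37) and Kdm4a, a histone demethylase, was higher (0.90 ± 0.25). No gene of the methyl donor cycle was called by edgeR in excitatory (0 of 7, with 5 below an unadjusted 0.05) or inhibitory neurons (0 of 4, with 2 below). The share of all genes below an unadjusted 0.05 was not counted, so the 5 and the 2 have no background to be read against.

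Of 24 substrates, 5 were called in excitatory neurons, a share near the 19.3% of all genes. Of these, 2 were higher, among them Ncl (0.60 ± 0.08), which encodes the nucleolar protein nucleolin, and 3 were lower, Gar1 (-1.41 ± 0.37), Lsm4 (-0.95 ± 0.25) and Ncoa3 (-0.79 ± 0.11). In inhibitory neurons 4 were higher, among them Ncl (0.73 ± 0.11), Snrpd1 (0.69 ± 0.14) and Snrpb (0.62 ± 0.11), and 2 were lower, Gar1 (-1.23 ± 0.38) and Lsm4 (-1.11 ± 0.18). In mature oligodendrocytes 3 substrates were higher and 0 lower, Snrpb (0.81 ± 0.14), Ncl (0.72 ± 0.15) and Sf3b2 (0.66 ± 0.13), and in endothelial cells 0 were higher and 2 lower, Lsm4 (-1.38 ± 0.28) and Serbp1 (-0.67 ± 0.14). Over all genes 7.55% were higher and 10.3% lower in mature oligodendrocytes, and 5.31% and 7.35% in endothelial cells. The medians of the substrates were 0.19 in excitatory and 0.26 in inhibitory neurons, beside medians of -0.0048 and 0.0021 over all genes tested.

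The comparison of treatments asks whether cocaine self-administration moves these genes. In a single fit that gave each of the 6 groups of 2 P60 libraries its own mean, 39 tests of a member in a class could be made within each period, and 0 were called by edgeR, and 0 by DESeq2, at maintenance, at 48 h and at 15 days. The maintenance saline library 3 held under 10 astrocytes, precursors and newly formed oligodendrocytes, so in these 3 classes the maintenance comparison rested on 1 saline library, assumed to vary like the other groups. All genes were called in 0.00992%, 0.00827% and 0.339% of tests. By unadjusted p, 2, 2 and 1 of the 39 tests were below 0.05 (5.13%, 5.13% and 2.56%), beside 4.47%, 4.53% and 5.38% of tests of all genes. The mean over periods called 0 members (0.00496% of all tests, 1 of 39 members below an unadjusted 0.05, beside 5.74% of all tests), and the test of a difference between periods 0 (0.00992% of all tests, 3 of 39 below, beside 4.23%). In 21 excitatory clusters, 0 of 124 member tests were called within each period or over their mean. Of all tests, 0.00456% (maintenance), 0.00521% (48 h), 1.30% (15 days) and 0.0364% (mean) were called. Of the 124, 8, 8, 3 and 13 were below an unadjusted 0.05. The share of all cluster tests below that value was not counted, so these counts have no background to be read against.

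The lowest adjusted p belonged to Prmt6 in excitatory neurons after 15 days of withdrawal. The cocaine libraries stood at 10.8 and 9.40 CPM and the saline libraries at 4.52 and 6.98 CPM, and these groups of 2 did not overlap. The difference was 0.88 ± 0.23 on the log2 scale (edgeR adjusted p = 0.107, where 0.706% of 13171 genes were called). The cocaine libraries of this period were the highest of the 12 P60 libraries, the other 8 libraries of earlier periods ran from 3.12 to 5.68 CPM, and the P21 libraries lay above all of them. The call was made without the saline library 12, the higher of the pair, which leaves 1 saline library at 15 days that is assumed to vary like the other groups (1.21, adjusted p = 0.0141), and without the filter on low counts (0.89, adjusted p = 0.000118). Without the saline library 11, the lower of the pair, the difference was 0.57 (adjusted p = 1.00), and without the cocaine library 9 or 10 it was 0.79 or 0.97 and not called. At maintenance and at 48 h the Prmt6 differences were -0.26 ± 0.34 and 0.06 ± 0.30, and the test of a difference between periods did not pass (adjusted p = 0.867). In inhibitory neurons, where it was not tested, Prmt6 stood at 10.9 and 10.0 CPM in these cocaine libraries and at 1.22 and 8.99 CPM in the saline libraries.

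**Figure D5:**
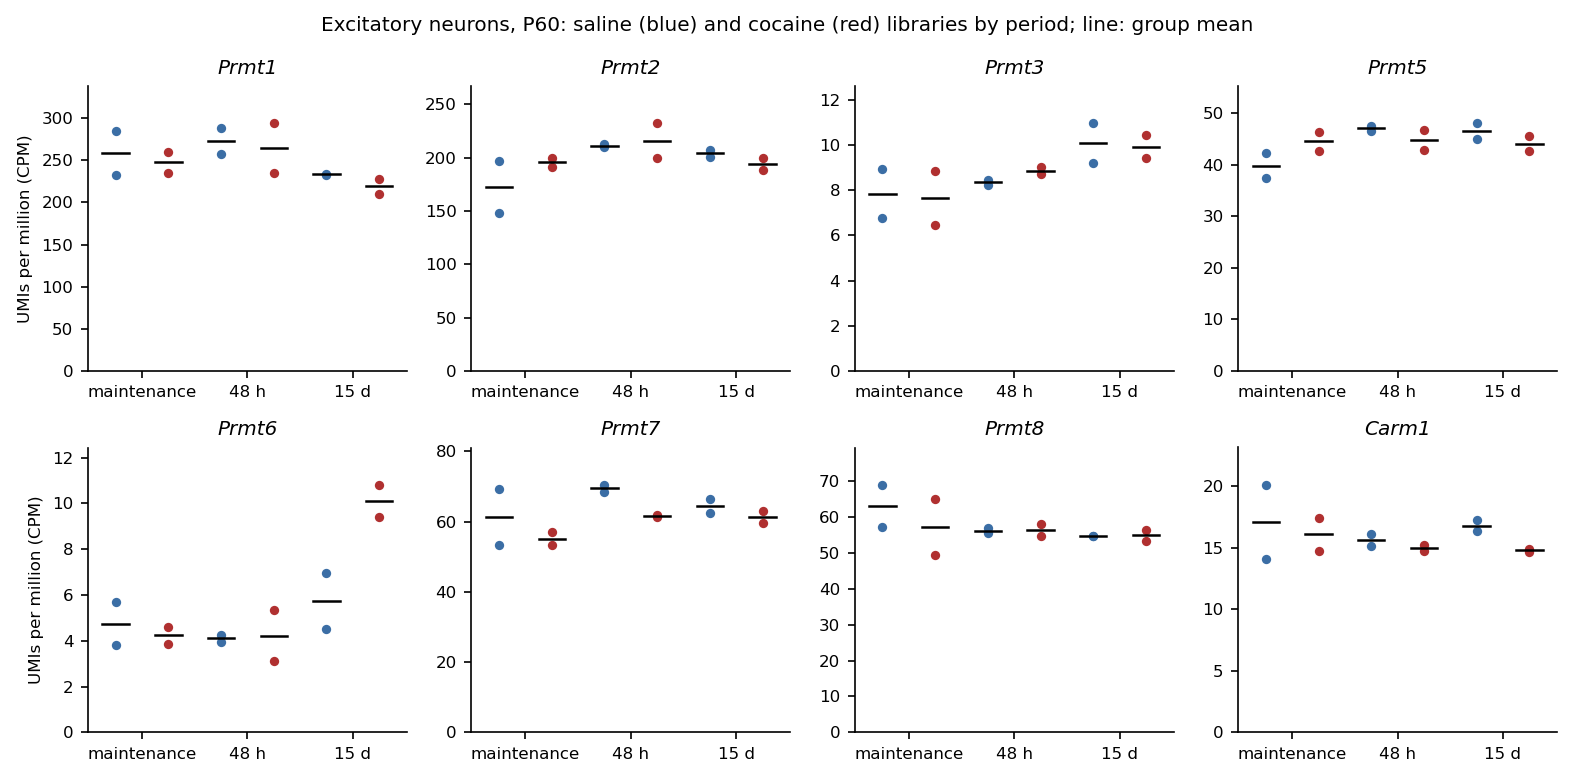
Level of each gene in excitatory neurons of the P60 libraries in CPM (linear axes from 0) by period, with saline libraries in blue, cocaine libraries in red and a line at the mean of each group of 2. On a fold scale Prmt6 at 15 days is the pair of groups farthest apart, at 9.40 and 10.8 against 4.52 and 6.98 CPM.

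For the other 7 genes the cocaine differences in excitatory neurons lay between -0.20 and 0.14 on the log2 scale in each period. Prmt1 differed by -0.09 ± 0.14, -0.06 ± 0.14 and -0.04 ± 0.14 at maintenance, 48 h and 15 days. Prmt8 differed by -0.16 ± 0.12, -0.02 ± 0.12 and 0.05 ± 0.11. None of these differences passed the threshold in edgeR.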

How the data were processed

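Single-cell RNA libraries of mouse PFC were made with a droplet method that reads 3′ ends. The authors used Cell Ranger to align reads to mm9 and to count the UMIs of each gene, and clustered cells with Seurat 2.1.0. The deposited matrices hold raw UMI counts, and the deposited cell annotation gives class, cluster, sample and the fraction of mitochondrial UMIs, which was used here to describe the libraries. The joined expression table was not used. The authors removed likely double droplets, by a cap on detected genes and by inspection of clusters, and no doublet caller was run here. Of 35360 cells, 492 had a class column that differed from their cluster (459 at P21), and classes were taken from the cluster.

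UMIs were summed per library and class or cluster, leaving out libraries with fewer than 10 cells of a type and 156 mitochondrial or ribosomal protein genes (8.83% to 11.1% of UMIs). Libraries held 8375172 to 42892922 UMIs. Sums were tested with edgeR 4.0.16 (quasi-likelihood test, TMM scaling, filterByExpr) in R 4.3.3, with p-values adjusted over all genes of a fit by Benjamini-Hochberg. Calls needed more than a 1.5-fold change with p below 0.05 after adjustment, and differences between classes or clusters the adjusted p alone. Age compared 6 P60 saline with 3 P21 libraries, and cocaine was compared with saline in 12 P60 libraries. Class levels were compared between neighbours in rank by an exact two-sided sign-flip permutation test of log2(CPM + 1) over libraries, where the smallest p is 0.000488 with 12 libraries. P-values measure the spread between libraries, which at P60 were of pooled mice and at P21 may not be of wholly separate animals. The scripts were tested on simulated data. Alternatives were DESeq2 1.42.0 (test or size factors), no filter, no fold limit, Bonferroni adjustment, a minimum of 30 cells, thinning to 2000 UMIs, kept mitochondrial and ribosomal genes, other sets of libraries and leaving out each library. All 8 genes are named, together with the 3 genes of highest likeness to each and the called genes of fixed pathway lists, up to 3 in each direction. A single gene of these lists is not reported here by name. Leading genes of clusters were named after their values were seen. Members and lists were chosen with earlier results of these data known. Whether reads shared by related genes were split between them was not tested.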

Additional observations from a re-analysis of the deposited data

Results flagged for a closer look

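Among 25 sets of P60 saline libraries of a gene in a class, 4 held a library that stood apart from the rest by Dixon's criterion, which marks about 1 in 20 sets by chance. The maintenance saline library 2 was the lowest for Prmt2 in excitatory neurons (148 CPM) and the highest for Prmt8 in excitatory (68.9 CPM) and inhibitory neurons (81.7 CPM), and it had the lowest median depth of all libraries, 3426 UMIs per cell. The maintenance saline library 3 was the lowest for Carm1 in inhibitory neurons, at 3.44 CPM on 28 cells. The part of depth or cell number in these values was not tested.

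The age change differed between classes by the test of the difference itself in 4 cases. Relative to excitatory neurons it was -0.88 on the log2 scale for Prmt2, 0.49 for Prmt5 and 0.60 for Prmt8 in inhibitory neurons, and -0.75 for Prmt2 in endothelial cells. With pooled UMIs the level was higher at P60 in 6 of 12 inhibitory clusters for Prmt5, 4 of 12 for Prmt8 and 3 of 12 for Prmt2. Inhibitory cells were spread over these clusters in different proportions at the 2 ages, and the part of this in the class differences was not tested.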

How the results depend on the processing

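No paired analysis was possible because the sample numbers of P21 and P60 libraries name different mice and those of the P60 groups do not repeat. The 6 age calls by class became 1 (Prmt6 in excitatory neurons) under a Bonferroni adjustment, were 5 to 8 when a library was left out and 5 to 9 under the other alternatives. The counts without the saline library 7 of 48 h or 12 of 15 days include Prmt6 in inhibitory neurons. The 39 age calls by excitatory cluster, which include the 4 of Prmt6, became 10 under Bonferroni and 15 with thinned cells, and were 33 to 41 with a library left out. The 4 differences between classes were 2 to 5 with a library left out, 2 of them without the second P21 library. The 0 cocaine calls became 1 (Prmt6 at 15 days) without the filter on low counts and were 0 to 1 with a library left out, which leaves 1 library in its group. The 6 neighbour steps between classes were 0 with the 6 saline libraries alone, where the smallest p is 0.03125 before adjustment, and 3 to 6 with a library left out, 3 without library 1, 2, 6, 8, 10 or 11. The age value of Carm1 in excitatory neurons ran from -0.0938 to 0.0176 with a library left out and changed sign without the first P21 library. Prmt7 in excitatory neurons also fell under 1.5-fold with thinned cells (0.58) and all 12 P60 libraries (0.54), and under both alternatives chosen after seeing the data, the other class column (0.57) and cells whose columns match (0.57). Other than by construction, the cause was not tested. Precursors at P21, Prmt6 in inhibitory neurons and most glial levels of Prmt3, Prmt6 and Carm1 were limited by few UMIs.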
